A study of Mus musculus with 27 samples.

Results

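The genes described here are those that mark the stem cells at the base of the colonic crypt or hold Wnt signaling in check there. They were chosen by name, as the rows of the colonic count tables whose Ensembl identifier maps to Lgr5, Ascl2, Axin2, Smoc2, Rnf43, Znrf3, Sox9, Ephb2, Ephb3 or Lrig1, which is 10 of 46078 gene rows. The rule uses names only, but it was set with earlier results of these data known. The RNA came from the scraped colonic epithelium of male C57BL/6 mice, 27 in all, and each mouse has a table of its own. TCDD, a chlorinated dioxin, is the most studied ligand of the aryl hydrocarbon receptor (AhR), a transcription factor. There were 9 groups of 3 mice, one given sesame oil vehicle and the others TCDD at 30, 10, 3, 1, 0.3, 0.1, 0.03 or 0.01 μg/kg, by gavage every 4 days for 28 days. The mice were 28 days old at the start and 56 days old at the end, and the labels give no transgene or other agent for any group.

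Colonic crypts are renewed by stem cells at their base, and these cells depend on Wnt ligands from the surrounding tissue. R-spondins bind LGR receptors and thereby remove a pair of membrane ubiquitin ligases, RNF43 and ZNRF3, which otherwise take the Wnt receptors of the Frizzled family off the cell surface. Both ligases and AXIN2 are themselves Wnt targets, so they act as feedback brakes, and Rnf43 and Znrf3 have also been described as targets of the AhR.

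The members lie on 7 chromosomes of the GRCm38 build. Lgr5 (ENSMUSG00000020140) lies on the minus strand at chr10:115450311-115587780, Ascl2 (ENSMUSG00000009248) at chr7:142966829-142969264, also minus, and Smoc2 (ENSMUSG00000023886) on the plus strand at chr17:14279506-14404790. Axin2 (ENSMUSG00000000142, chr11:108920349-108950783, plus), Rnf43 (ENSMUSG00000034177, chr11:87662722-87735539, plus), Znrf3 (ENSMUSG00000041961, chr11:5276324-5444847, minus) and Sox9 (ENSMUSG00000000567, chr11:112782224-112787760, plus) share chromosome 11. Ephb2 (ENSMUSG00000028664) lies at chr4:136647539-136835988 on the minus strand, Ephb3 (ENSMUSG00000005958) at chr16:21204755-21223305 on the plus strand, and Lrig1 (ENSMUSG00000030029) at chr6:94604529-94700158 on the minus strand. Exons of Axin2 overlap an antisense gene, Gm11670, that reached 3 counts in any mouse, and exons of Lrig1 overlap Slc25a26 on the opposite strand, which reached 68. The sources do not state whether the counting used the strand, so reads of those overlaps cannot be assigned with certainty.

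Since the AhR binds DNA at sites whose core is GCGTG, the RefSeq promoters (GRCm38.p6, 250 bases before to 50 after a start site) of the members were searched for that core on both strands, and for the TCF/LEF motifs CTTTGAT and CTTTGAA. A promoter was given for 6 of the 10 members, and 5 of the 6 held GCGTG, against 35.2% of the 27025 genes in the same table. For each of the 5, 1 window of 25 bases is shown along the strand of its gene, with the core in capitals, because these are the letters to set beside the dose responses of the same genes.
Rnf43: tgcctgatctGCGTGgattactttt
Ephb3: gcctctggggGCGTGgcctgagtgt
Ephb2: catgactcggGCGTGgtgcaacccg
Lrig1: acgggcaggcGCGTGgggtccacgg
Ascl2: ggcggagtggGCGTGgagccttgtg
The Rnf43 window lies at chr11:87663006-87663030 (plus strand), and its core begins at position -71 counted from the first of the gene's 2 start sites in the table. The second start site of Rnf43 held no GCGTG. The other windows lie at chr16:21204691-21204715 (Ephb3, plus), chr4:136836102-136836126 (Ephb2, minus), chr6:94700099-94700123 (Lrig1, minus) and chr7:142969435-142969459 (Ascl2, minus). Ascl2 held 3 cores and Ephb2 held 2, counting both strands. The promoter of Axin2 held none of the motifs searched. Neither TCF/LEF motif was found in a member's promoter, so no matches overlapped, and these motifs occurred in 4.29% and 5.93% of all genes. A match describes letters in a window and does not show a bound site.

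Gene counts per mouse ran from 9305441 to 14371035 with a median of 11651026, and levels are given as CPM, the count scaled to a common library total with TMM normalization. The 8 epithelium markers, among them Epcam and Cdh1, summed to between 7850 and 8640 CPM in vehicle-treated mice, whereas the 6 smooth muscle markers summed to between 46 and 87.6. Exposure was seen in Cyp1a1, the classical AhR target, with a mean of 0.0655 CPM in vehicle-treated mice and 2200 at 30 μg/kg TCDD. The index barcodes named with the count tables were used in 2 sets that follow the dose. Mouse 41 of the 1 μg/kg group and the 15 mice from vehicle up to 0.3 μg/kg used the first set, while mice 43 and 44 of the 1 μg/kg group and every mouse at the higher doses used the second. A difference between a high dose and vehicle is therefore also one between index sets, which only the 3 mice at 1 μg/kg help to separate. A fit with a term for the index set was added, and 30 μg/kg was also compared with 3 μg/kg, within the second set. The 3 mice at 1 μg/kg also differed in a stroma score, the mean log2 CPM of 13 fibroblast and smooth muscle genes. It was 4.58 in mouse 41, against 1.97 and 2 in mice 43 and 44, so the index term also follows that difference. All differences come from edgeR's quasi-likelihood test over 16496 genes with Benjamini-Hochberg adjustment, and a gene was called where the adjusted p was under 0.05 with a change of at least 1.5-fold. In bulk RNA, fewer cells of a type and less RNA per cell cannot be told apart.

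Every member passed the filter on low counts, although at different depths. Per kilobase of exon, Sox9 (25.7 CPM per kb over all mice) and Lrig1 (22.4) had the highest levels, followed by Rnf43 (9.81), Ephb2 (9.73), Axin2 (8.96), Ephb3 (5.28) and Znrf3 (3.73). Smoc2 (1.65), Ascl2 (1.63) and Lgr5 (0.878) had the lowest levels per kilobase. Each member overlapped its neighbor in that order across mice, with 2 exceptions. The lowest mouse for Lrig1 (16.1 CPM per kb) lay above the highest for Rnf43 (11.9), and the lowest for Znrf3 (3.04) lay above the highest for Smoc2 (2.34). Lgr5 had 29 to 159 counts per mouse and Ascl2 13 to 59, against 553 to 1038 for Rnf43. The standard errors of the log2 fold-changes at 30 μg/kg were 0.067 for Rnf43, 0.19 for Lgr5 and 0.32 for Ascl2.

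At 30 μg/kg against vehicle 3 of the 10 members, Lgr5, Axin2 and Sox9, were called lower and none higher, while 6.16% of all genes tested were called. Rnf43 rose by less than the fold-change threshold and Ephb3 fell by less than it. Both had an adjusted p under 0.05. Smoc2, Ascl2, Znrf3, Ephb2 and Lrig1 were not called. The median log2 fold-change of the members was -0.35, against -0.002 over all genes tested. Between 30 and 3 μg/kg, within the second index set, Lgr5 was the only member called (0.461% of all genes). It was also the only one called against vehicle with a term for the index set (731 of 16496 genes).

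**Figure D1:**
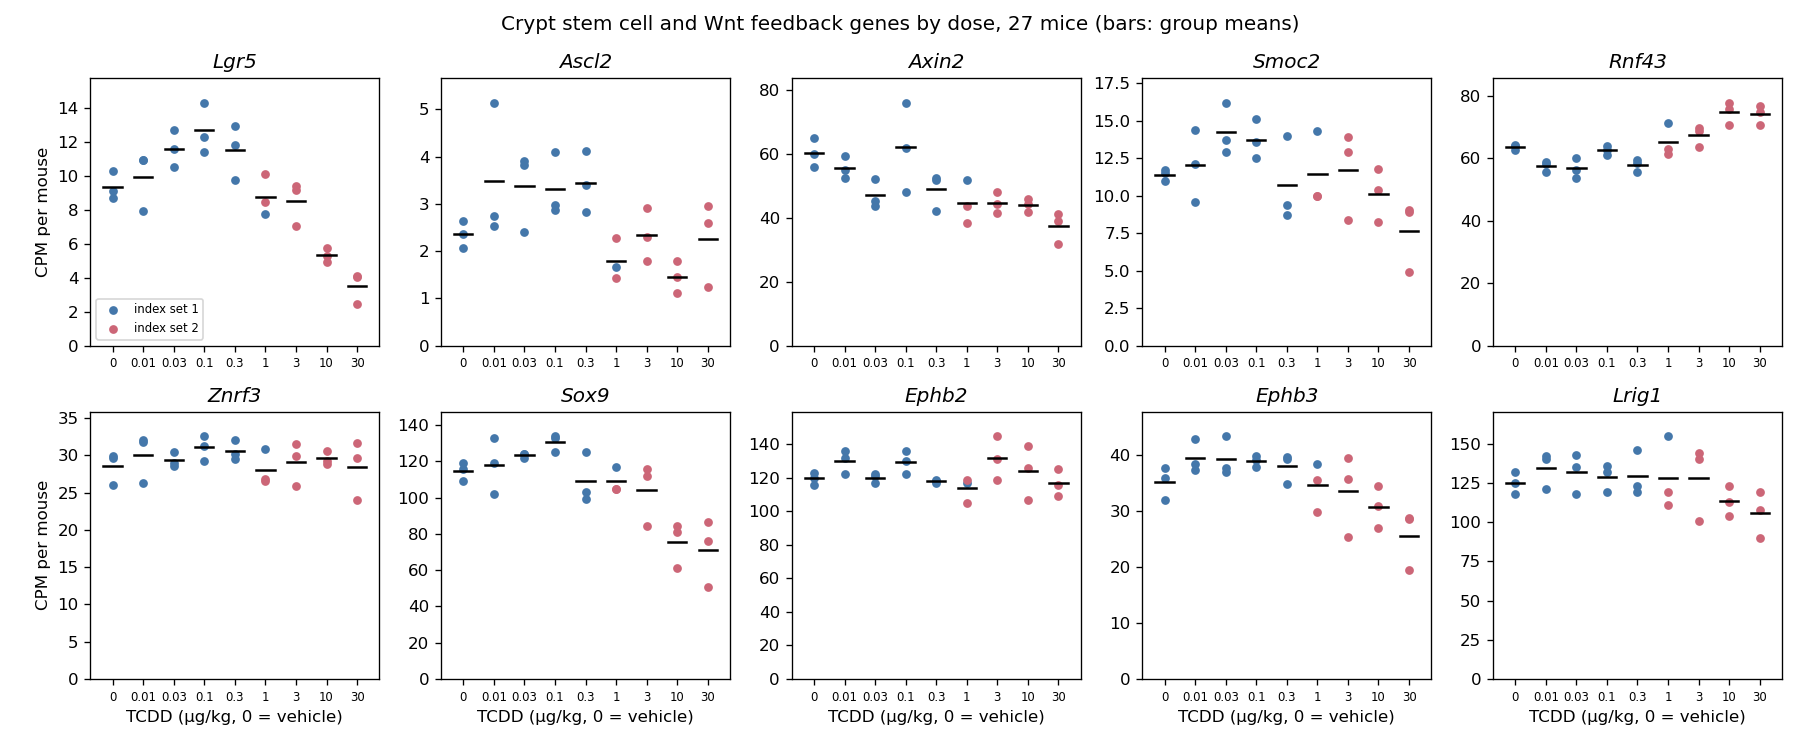
Each panel plots CPM (linear axis from 0) of a member in single mice against the dose of TCDD in μg/kg, with vehicle at 0, index sets in 2 colors and bars at group means. Lgr5 lies between 2.43 and 4.1 CPM at 30 μg/kg, below the 8.66 to 10.3 of vehicle-treated mice, whereas Rnf43 lies between 70.6 and 76.6, above their 62.7 to 64.3.

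Lgr5 encodes the R-spondin receptor that defines the crypt base stem cell. In vehicle-treated mice 2, 3 and 4 it had 8.66, 10.3 and 9.13 CPM, and in mice 65, 66 and 67 at 30 μg/kg it had 4.1, 2.43 and 4.05. The groups did not overlap, and mouse 66 was the lowest of all 27. Lgr5 fell 2.64-fold (log2 fold-change -1.4, standard error 0.19, adjusted p = 6.05e-05, edgeR). At 10 μg/kg, mice 57, 58 and 59 had 4.95, 5.74 and 5.29 CPM, again all below vehicle, and the log2 fold-change was -0.81 (standard error 0.18, adjusted p = 0.0136). That call was lost without vehicle-treated mouse 3 (-0.74, adjusted p = 0.064) or without mouse 57 (-0.75, adjusted p = 0.0536). The mice given 3 μg/kg had 9.38, 7.03 and 9.15 CPM, and those given 1 μg/kg had 7.76, 8.44 and 10.1. Both of these groups overlapped with vehicle.

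At lower doses most mice had Lgr5 levels at or above those of vehicle. Mice given 0.01 μg/kg had 7.92, 10.9 and 10.9 CPM, those given 0.03 μg/kg had 11.6, 10.5 and 12.7, and those given 0.1 μg/kg had 14.3, 11.4 and 12.3. At 0.3 μg/kg the 3 mice had 12.9, 9.77 and 11.8 CPM. All 6 mice at 0.03 and 0.1 μg/kg exceeded every vehicle-treated mouse, but no difference passed the adjustment. The largest, at 0.1 μg/kg, was 0.43 on the log2 scale with an adjusted p of 0.74 (edgeR). No gene at all was called at 0.01, 0.03, 0.1 or 0.3 μg/kg (0% of genes at each of these 4 doses), where 1047, 766, 1051 and 856 genes had an unadjusted p under 0.05.

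Within the second index set, the 30 μg/kg mice had 2.41-fold less Lgr5 than the 3 μg/kg mice (log2 fold-change -1.27, standard error 0.19, adjusted p = 0.000649, edgeR). A fit of these groups alone gave the same difference with an adjusted p of 0.0945, the highest of 9 other fits, and DESeq2 gave the lowest, 7.12e-07. Lgr5 was the 1 member called in this comparison, in which 0.461% of all genes were called. With a term for the index set in the fit, its log2 fold-change at 30 μg/kg against vehicle was -1.66 (adjusted p = 0.00943). At 10 μg/kg the same fit gave -1.07, with an adjusted p of 0.105. Between 10 and 3 μg/kg, 0 members and 0.0485% of all genes were called.

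Ascl2, a basic helix-loop-helix factor that controls the stem cell state, was not called at any dose. Vehicle-treated mice had 2.36, 2.64 and 2.06 CPM, and those at 30 μg/kg had 2.95, 1.25 and 2.59, on both sides of vehicle. The log2 fold-change was -0.05 with a 95% interval from -0.71 to 0.62, so a change of 1.5-fold in either direction lies inside the interval. At 10 μg/kg all 3 mice (1.45, 1.11 and 1.79 CPM) lay below vehicle, with a log2 fold-change of -0.68 (adjusted p = 0.297, edgeR). The highest single value, 5.14 CPM, belonged to mouse 11 at 0.01 μg/kg.

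Smoc2 encodes a secreted matricellular protein of the stem cell signature. It had 11.5, 11 and 11.7 CPM in vehicle-treated mice and 9.06, 4.93 and 8.88 at 30 μg/kg. These groups did not overlap, yet the difference of -0.58 (95% interval -1.06 to -0.09) was not called, with an adjusted p of 0.111 (edgeR). Against 3 μg/kg, where mice had 13.9, 12.9 and 8.38 CPM, it was -0.61 (adjusted p = 0.287).

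Lrig1, a membrane protein that dampens EGF receptor signaling and marks a wider set of crypt stem cells, had 125, 118 and 132 CPM in vehicle-treated mice. At 30 μg/kg it had 119, 89.9 and 108, overlapping with vehicle in mouse 65. The log2 fold-change was -0.25 (95% interval -0.53 to 0.03, adjusted p = 0.247, edgeR), an interval that does not reach a 1.5-fold change.

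Axin2, the scaffold of the β-catenin destruction complex and the standard readout of Wnt signaling, had 60, 65 and 55.8 CPM in vehicle-treated mice. It had 41.1, 31.9 and 38.9 CPM at 30 μg/kg, and the groups did not overlap. Axin2 fell 1.61-fold (log2 fold-change -0.69, standard error 0.14, adjusted p = 0.00246, edgeR). Lower values appeared well below that dose. All 3 mice lay below every vehicle-treated mouse at 0.03 μg/kg (52.2, 45.3 and 43.7 CPM), at 0.3 μg/kg (51.9, 42.1 and 52.4) and at each dose from 1 μg/kg upward, but not at 0.1 μg/kg (75.9, 48.1 and 61.8). None of these doses but 30 μg/kg gave a call. The log2 fold-change was -0.36 (adjusted p = 0.988, edgeR) for 0.03 μg/kg and -0.3 (adjusted p = 0.937) for 0.3 μg/kg. It was -0.44 (adjusted p = 0.244) for 1 μg/kg, -0.43 (adjusted p = 0.112) for 3 μg/kg and -0.46 (adjusted p = 0.0633) for 10 μg/kg.

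When 30 μg/kg was set against 3 μg/kg instead, Axin2 differed by -0.26 on the log2 scale (95% interval -0.54 to 0.02, adjusted p = 0.505, edgeR). With a term for the index set the difference from vehicle was -0.36 (adjusted p = 0.42), and it was no longer called.

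Rnf43 moved in the other direction. Vehicle-treated mice had 64.3, 62.7 and 63.9 CPM, and mice at 30 μg/kg had 74.6, 70.6 and 76.6. At 10 μg/kg the values were 75.7, 77.7 and 70.5 CPM, and all 6 mice at these doses exceeded every vehicle-treated mouse. At 30 μg/kg the increase was 1.16-fold (log2 fold-change 0.22, standard error 0.067, adjusted p = 0.0383, edgeR), with a 95% interval from 1.06- to 1.28-fold that lies below the threshold of 1.5-fold. The 10 μg/kg group differed by 0.23 (adjusted p = 0.058).

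At the low doses Rnf43 lay below vehicle, with 55.4, 58.8 and 58 CPM in mice given 0.01 μg/kg and 53.7, 56.3 and 60.1 in those given 0.03 μg/kg. At 0.1 μg/kg (60.9, 62.7 and 64 CPM) it overlapped with vehicle, and at 0.3 μg/kg (58.5, 59.3 and 55.6) it did not. The differences at 0.01 and 0.03 μg/kg, -0.15 and -0.17 on the log2 scale, had adjusted p of 0.781 and 0.988 (edgeR). From 3 μg/kg (63.5, 69.6 and 68.6 CPM) to 30 μg/kg, within an index set, the difference was 0.14 (adjusted p = 0.455). With a term for the index set the difference at 30 μg/kg from vehicle was 0.41 (adjusted p = 0.037). The adjusted p was 0.171 with a stroma score as covariate, 0.121 with only both groups in the fit and 0.179 with no filter, and it was under 0.05 in the other 5 fits (0.0238 to 0.0422). With single mice left out it was under 0.05 only without mouse 66 (0.0451), and from 0.0768 to 0.122 in the other 5 fits.

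Znrf3, the paralog of Rnf43 with the same action on Frizzled receptors, had 26, 29.9 and 29.7 CPM in vehicle-treated mice and 29.6, 24 and 31.6 at 30 μg/kg. Mouse 66 lay below and mouse 67 above all vehicle-treated mice. The log2 fold-change was -0.01 with a 95% interval from -0.22 to 0.21 (adjusted p = 0.979, edgeR), that is 0.86- to 1.15-fold. All 27 mice lay between 24 and 32.6 CPM. Whether Rnf43 and Znrf3 differed in their response was not tested, and their intervals at 30 μg/kg overlap.

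Sox9, a transcription factor of the crypt base, had 116, 109 and 119 CPM in vehicle-treated mice. The 10 μg/kg mice had 61, 84.2 and 80.8 CPM and the 30 μg/kg mice 75.8, 50.9 and 86.5, all below vehicle. At the highest dose Sox9 was 1.61-fold lower (log2 fold-change -0.69, standard error 0.15, adjusted p = 0.00571, edgeR) and at 10 μg/kg 1.52-fold lower (-0.61, standard error 0.15, adjusted p = 0.0276). The call at 10 μg/kg was lost when any of 5 of the 6 mice was left out, with adjusted p of up to 0.143. At 10 μg/kg, Lgr5 and Sox9 were the 2 members called, where 1.78% of all genes were. From 3 μg/kg (116, 112 and 84.1 CPM) to 30 μg/kg the difference was -0.55 (adjusted p = 0.108). Against vehicle, the fit with the index set gave -0.53 for 30 μg/kg (adjusted p = 0.282), and that of these groups alone gave -0.69 (adjusted p = 0.0514).

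Ephb2 and Ephb3 encode receptor tyrosine kinases that keep crypt base cells in place against ephrin-B ligands of the upper crypt. Ephb3 had 37.7, 35.9 and 31.9 CPM in vehicle-treated mice and 28.7, 19.4 and 28.5 at 30 μg/kg. The groups did not overlap, and the 1.38-fold decrease (log2 fold-change -0.46, standard error 0.15, adjusted p = 0.0475, edgeR) was under the fold-change threshold. The adjusted p was above 0.05 in 5 of the 6 fits that left out a mouse (0.0584 to 0.237), and under it only without mouse 65 (0.0359). With the stroma score as covariate Ephb3 was called (-0.59, adjusted p = 0.0242), whereas the fit with the index set gave -0.23 (adjusted p = 0.677). Ephb2 had 123, 116 and 120 CPM in vehicle-treated mice and 116, 109 and 125 at 30 μg/kg, which overlapped. Its log2 fold-change was -0.04 (95% interval -0.21 to 0.14, adjusted p = 0.826). Whether the receptors differed from each other was not tested.

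**Figure D2:**
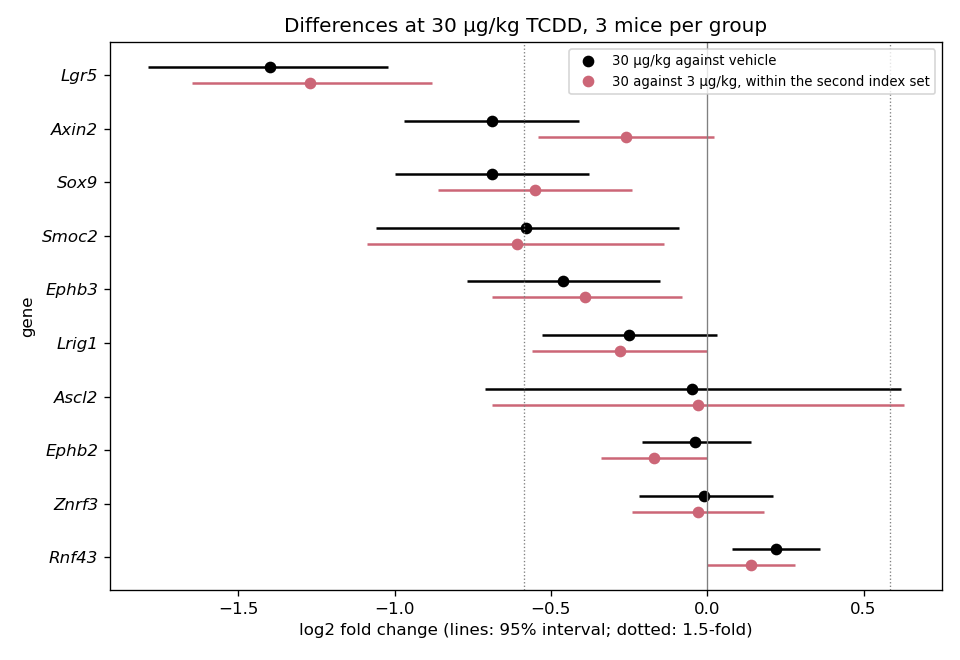
Points give the log2 fold-change of each member and lines its 95% interval, at 30 μg/kg against vehicle (black) and against 3 μg/kg (red), with 3 mice per group and dotted lines at 1.5-fold. The interval of Lgr5 lies wholly beyond 1.5-fold in both comparisons (-1.79 to -1.02 and -1.65 to -0.88), and those of Rnf43, Znrf3, Ephb2 and Lrig1 lie wholly within it.

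With 3 mice against 3, an exact permutation test (two-sided) of CPM cannot give a p under 0.1. That value was reached at 30 μg/kg by the 6 members whose groups did not overlap, Lgr5, Axin2, Smoc2, Rnf43, Sox9 and Ephb3. The share of all genes without overlap was not counted, so the 6 cannot be set against it. At this dose 27% of all genes had an unadjusted p under 0.05 (edgeR). The exact p was 0.2 for Lrig1, 0.6 for Ephb2, 0.8 for Znrf3 and 0.9 for Ascl2. Mouse 66 had the lowest value of its group for 10 of the 10 members. Its members summed to 404 CPM, against 501 and 511 in the other mice at 30 μg/kg and 561 to 576 in vehicle-treated mice. Without mouse 66, Lgr5 (log2 fold-change -1.2, adjusted p = 0.000684, edgeR) and Axin2 (-0.59, adjusted p = 0.0193) were called, whereas Sox9 was not (-0.5, adjusted p = 0.0349). Without that mouse Ephb3 was at -0.3 (adjusted p = 0.237) and Smoc2 at -0.34 (adjusted p = 0.408).

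No member was called at 1 or 3 μg/kg, where 0.2% and 0.697% of all genes were. Over all 9 groups the slope per step of dose rank passed an adjusted p under 0.05 for 7 of the 10 members, against 23.4% of all genes. The slope per step was -0.153 on the log2 scale for Lgr5, -0.098 for Ascl2, -0.09 for Sox9, -0.074 for Axin2, -0.065 for Smoc2 and -0.06 for Ephb3. It was 0.042 for Rnf43, the 1 member with a positive slope past the threshold, and the adjusted p ran from 0.000328 for Axin2 and Rnf43 to 0.0426 for Ascl2 (edgeR). Ascl2 and Smoc2 each lost that call in 12 of the 27 fits that left out a mouse. Lrig1 (-0.03, adjusted p = 0.0717), Ephb2 (-0.004) and Znrf3 (-0.004) did not pass. With a term for the index set 0 members passed, and 11 of all genes did. In the vehicle-treated mice and those given up to 0.3 μg/kg, 15 in all, the slope passed for 0 members and 0% of genes, and the slope of Lgr5 there was 0.094 (unadjusted p = 0.0156, adjusted p = 0.988).

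Over all mice most pairs of members had a positive correlation, and the pairs below 0 were those with Rnf43. Over 27 mice, Pearson's r of log2 CPM was above 0 in 36 of the 45 pairs, with a median of 0.46. These correlations are across mice that share dose groups and index sets. They were not set beside pairs of other genes, and they are given as a description. After the mean of each group was removed, r was above 0 in 44 of the 45 pairs, those with Rnf43 among them, and 0 for Lgr5 with Ephb2. The median r within groups was 0.39, and the highest was 0.9 for Smoc2 with Lrig1. The lowest over all mice was -0.75 for Lgr5 with Rnf43, and within groups that pair had 0.06.

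**Figure D3:**
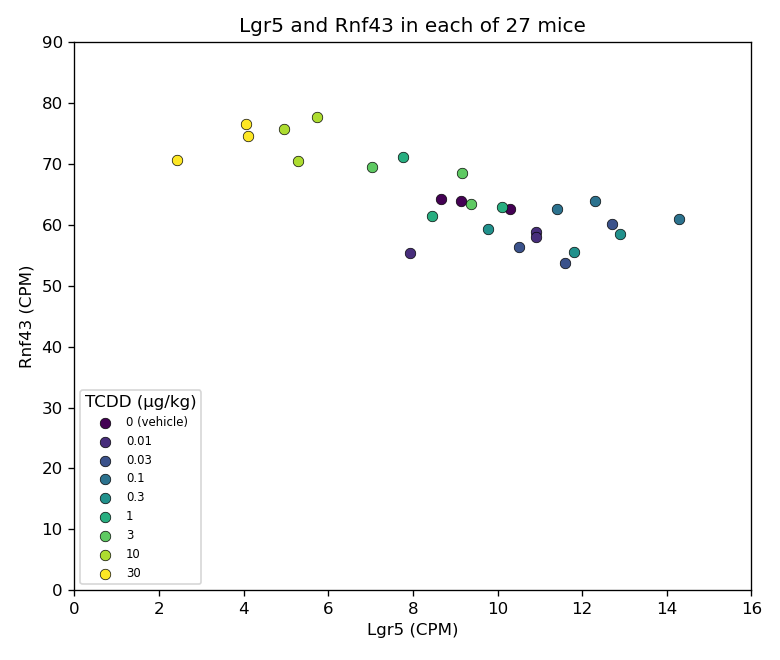
Each point is 1 of 27 mice, with Lgr5 (CPM) on the horizontal and Rnf43 (CPM) on the vertical axis, both linear from 0, and color for the dose in μg/kg. The 6 mice at 10 and 30 μg/kg lie at the upper left, with Lgr5 from 2.43 to 5.74 CPM and Rnf43 from 70.5 to 77.7 CPM.

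Genes whose levels were most like those of Lgr5 across the 27 mice were Gm8979 (r = 0.925), Dclk1 (0.924), Sh2d7 (0.92), Gm8989 (0.919) and Sox4 (0.915). Dclk1 encodes a kinase that marks tuft cells, and Sox4 a transcription factor. Within groups r with Lgr5 was 0.74 for Gm8979, 0.66 for Dclk1, 0.53 for Sh2d7, 0.61 for Gm8989 and 0.57 for Sox4. For Rnf43 the nearest were Cdyl2 (0.865), Arhgap10 (0.863), Selenbp1 (0.857), Cyp1a1 (0.855) and Acta1 (0.827). Within groups their r with Rnf43 was 0.38, 0.42, 0.33, 0.2 and 0.21, in that order. The nearest to Znrf3 were Creb3l1 (0.71), Pdia5 (0.689), Zfp629 (0.688), Klk1 (0.684) and Gcg (0.681), with r of 0.81, 0.82, 0.77, 0.71 and 0.73 within groups.

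The other genes of the pathway are given at 30 μg/kg against vehicle, where 6.16% of all genes were called. Among Wnt ligands and the genes of their secretion, 6 of 12 passed the filter and 0 were called. Wls, the carrier that brings Wnt ligands to the cell surface, had 104 ± 6.01 CPM in vehicle-treated mice and 71.4 ± 9.5 at 30 μg/kg (SD, n = 3 each). Its log2 fold-change was -0.53 (adjusted p = 0.000754, edgeR) against vehicle and -0.54 (adjusted p = 0.00372) against 3 μg/kg, both under the fold-change threshold. Wnt5a had a log2 fold-change of -1.01 (adjusted p = 0.051). None of the 4 R-spondins passed the filter.

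Of 17 Wnt receptors and co-receptors 16 were tested, and 1 was called, with a median of -0.155 over the list. Fzd6, a Frizzled receptor, fell by 0.62 on the log2 scale (adjusted p = 0.0126, edgeR). Lgr4, another R-spondin receptor, was not called, with a log2 fold-change of -0.13 (adjusted p = 0.623). No gene of the 11 of β-catenin and its destruction complex was called, with Ctnnb1 itself at 0.12 (adjusted p = 0.414) and Csnk1a1 at 0.07 (adjusted p = 0.511). Nor was any of the 8 TCF/LEF factors and partners, where Tcf7l2, the main factor of this family in the intestine, was at 0.04 (adjusted p = 0.879) and the β-catenin cofactor Bcl9 at -0.05 (adjusted p = 0.778).

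Of 15 other Wnt inhibitors 8 were tested and 3 rose, with a median of 1.106 over the list. These were Dkk3 (log2 fold-change 1.41, adjusted p = 0.0165, edgeR), a secreted protein of the Dickkopf family, and the Dishevelled antagonists Nkd1 (1.29, adjusted p = 0.0304) and Nkd2 (3.82, adjusted p = 0.0164). Nkd2 had 1.57 ± 1.02 CPM at 30 μg/kg (SD, n = 3), few reads. Smooth muscle markers had a median log2 fold-change of 2.485 in the same comparison, above 0 for 6 of 6 genes, and 0 were called. Their sum ran from 46 to 87.6 CPM in vehicle-treated mice and from 96.4 to 639 at 30 μg/kg. Of the endothelium markers 2 of 4 rose, Cdh5 (2.34, adjusted p = 0.000589, edgeR) and Kdr (1.26, adjusted p = 0.0319), with a list median of 1.095 and sums of 15.3 to 18.9 CPM in vehicle-treated mice and 17.6 to 35.4 at 30 μg/kg. Of the fibroblast markers 1 of 7 rose, Dcn (1.51, adjusted p = 0.0398), with a median of 0.381 and sums of 109 to 137 and 78.8 to 201 CPM. Adipocyte markers had a median of 2.309 and sums of 0.984 to 9.38 and 7.98 to 91.4 CPM, and 1 of 4 rose, Cfd (3.03, adjusted p = 0.039). Of enteric glia and neuron markers 2 of 5 were tested and 1 rose, Uchl1 (2.43, adjusted p = 0.0163), with sums of 1.87 to 3.64 and 2.34 to 7.59 CPM. None of the 6 immune cell markers was called, with a median of -0.029 and sums of 25.7 to 29.4 and 18.9 to 25.3 CPM. Cdh5 was called in all 6 fits that left out a mouse, whereas Dcn and Kdr lost the call in 5 of 6 (adjusted p up to 0.142 and 0.154), Cfd in 4 (up to 0.306, at 1.66 without mouse 67) and Uchl1 in 3 (up to 0.0796). Cfd also lost it in 5 of 8 other fits. The part of endothelium, adipocytes, glia and neurons in these results was not tested. With a score of stroma and muscle genes as covariate, Dkk3 (0.69, adjusted p = 0.0596), Nkd1 (0.92, adjusted p = 0.138) and Nkd2 (2.89, adjusted p = 0.108) were no longer called. In the same fit Lgr5 (-1.39, adjusted p = 0.000293), Axin2 (-0.81, adjusted p = 0.00109) and Sox9 (-0.79, adjusted p = 0.00528) were called.

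Of 15 other Wnt target genes 13 were tested, 2 rose and 0 fell, with a median of 0.3. Ccnd1, which encodes cyclin D1, rose by 0.65 (adjusted p = 0.00331, edgeR), and the other was Nkd1, named above. Cd44, a surface glycoprotein of crypt cells, had a log2 fold-change of -0.59 (adjusted p = 0.14).

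Of 16 further genes of the crypt stem cell signature 14 were tested, 1 rose and 1 fell, with a median of -0.22. Rgmb, a BMP co-receptor, fell by 0.66 (adjusted p = 0.00104, edgeR), and Vdr, the vitamin D receptor, rose by 0.65 (adjusted p = 0.000254). Olfm4, the stem cell marker of the small intestine, had a mean of 0.216 CPM over all mice and was not tested. Among 10 proliferation genes 1 was called, Mki67, which fell by 1.06 (adjusted p = 0.00644), from 208 ± 25.3 to 99.7 ± 15 CPM (SD, n = 3 each). The median of that list was -0.103. Of the reserve and regenerative stem cell genes 7 were tested and 0 called, with the annexins Anxa3 at -0.31 (adjusted p = 0.558) and Anxa1 at 0.24 (adjusted p = 0.499). Hopx, a homeodomain protein of that list, had an adjusted p of 0.00684 at a log2 fold-change of -0.57, under the fold-change threshold. None of the 4 genes of deep crypt secretory cells, the neighbors of colonic stem cells, was called, with Agr2 at -0.02 (adjusted p = 0.968) and Kit at 0.27 (adjusted p = 0.308).

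**Figure D4:**
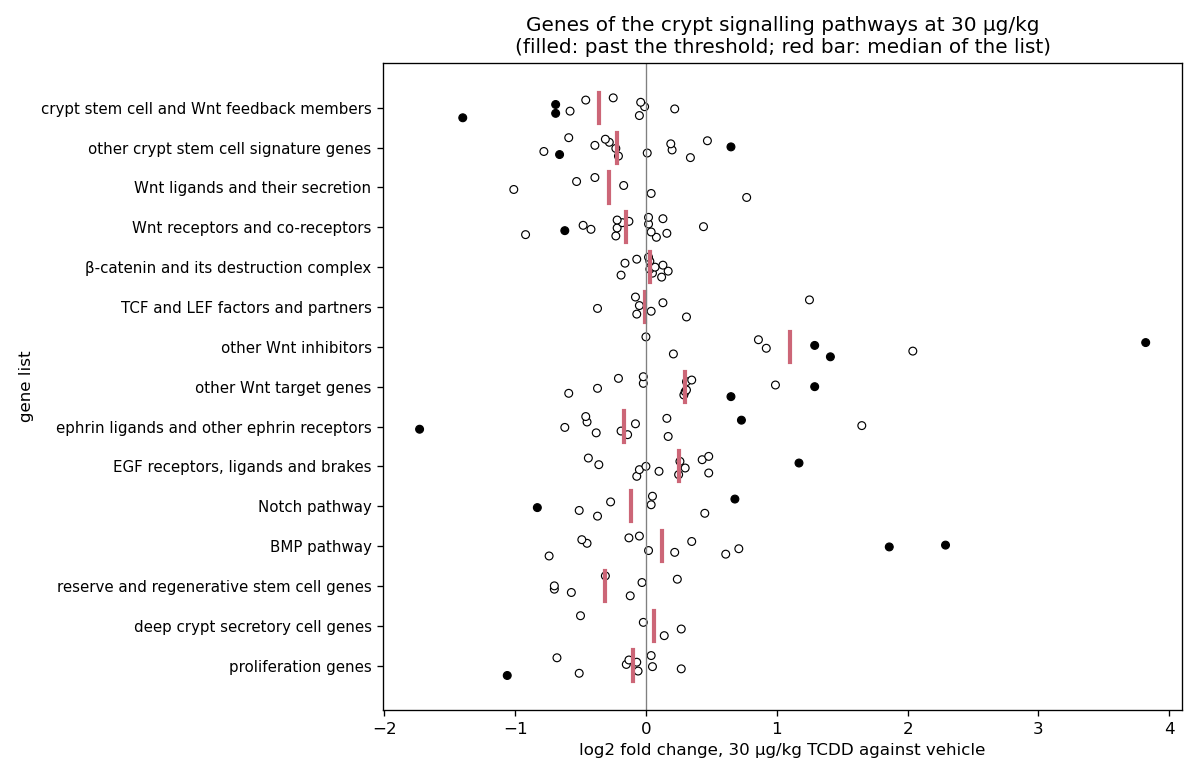
Each circle is a tested gene placed by its log2 fold-change at 30 μg/kg TCDD against vehicle, in rows by gene list, with called genes filled and a red bar at the median of each list. Of the members 3 are filled, all at negative values, and among the other Wnt inhibitors 3 are filled, all at positive values.

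Among partners of the ephrin receptors, 12 of 14 were tested. Epha1 rose by 0.73 (adjusted p = 0.00258, edgeR) and Efna3, a ligand, fell by 1.73 (adjusted p = 0.0125), while the ephrin-B ligands Efnb1 (0.17, adjusted p = 0.108) and Efnb2 (-0.14, adjusted p = 0.459) were not called. In the EGF pathway, which Lrig1 dampens, the ligand Ereg was the 1 of 13 genes called and rose by 1.17 (adjusted p = 0.0329). Of 8 Notch pathway genes, Atoh1, the factor that directs cells to the secretory fate, rose by 0.68 (adjusted p = 0.02), and the ligand Dll4 fell by 0.83 (adjusted p = 0.00432). In the BMP pathway the antagonist Chrdl1 rose by 2.29 (adjusted p = 0.0141). With the stroma score as covariate, Ereg (0.95) and Chrdl1 (1.51) were no longer called.

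Of the pathway genes named above as changed at 30 μg/kg against vehicle, from Fzd6 to Chrdl1, 0 of 14 were called between 30 and 3 μg/kg, within the second index set (adjusted p from 0.0788 for Rgmb to 0.984 for Atoh1, edgeR). Epha1 was at -0.12 there (adjusted p = 0.817), on the other side of zero, and Atoh1 at 0.02. The rest kept their direction, among them Chrdl1 (1.8), Nkd2 (1.32), Efna3 (-1.19), Nkd1 (0.92), Ereg (0.85) and Mki67 (-0.83). With a term for the index set, Dkk3, Nkd1, Vdr and Dll4 were called against vehicle and the other 10 were not. Of those 10, Epha1 (0.52, adjusted p = 0.256), Atoh1 (0.6, adjusted p = 0.326), Nkd2 (3.67), Ccnd1 (0.45) and Rgmb (-0.49) lay nearer to zero. Mki67 (-1.13), Efna3 (-1.77), Chrdl1 (2.36), Ereg (1.44) and Fzd6 (-0.78) lay further from zero. Dkk3 (2.55) and Nkd1 (2.33), which lost the call with the stroma score, also lay further from zero with the index term. Leaving out single mice ended 9 of the 14 calls. Nkd1, Ereg and Atoh1 were each lost in 4 of 6 such fits, Nkd2 and Chrdl1 in 3, Fzd6, Dkk3 and Efna3 in 2, and Rgmb in 1, without mouse 66. Atoh1 was lost without vehicle-treated mouse 2 or 3 and without mouse 65 or 67, with adjusted p of up to 0.0875.

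Of the 7 surface colonocyte markers 0 were called, with sums of 11000 to 11500 CPM in vehicle-treated mice and 10400 to 12100 at 30 μg/kg. Of the 6 goblet cell markers 1 was called, Zg16, which rose. Tuft cell markers fell with Lgr5, 4 of the 4 tested, with a median of -1.539. Their sum ran from 67.5 to 79.2 CPM in vehicle-treated mice and from 20.2 to 30.9 at 30 μg/kg, and Il25, a defining tuft cell gene, reached at most 0.0836 CPM in a mouse at 30 μg/kg and was not tested. Dclk1 fell by 1.59 (adjusted p = 4.98e-06, edgeR) and Trpm5, an ion channel of tuft cells, fell by 1.64 (adjusted p = 4.98e-06). The tuft cell gene Pou2f3 lost its call in 2 of 6 fits that left out a mouse (adjusted p up to 0.0675). It was called in 6 of 8 other fits (adjusted p up to 0.152), whereas Dclk1, Trpm5 and Avil kept their calls throughout. The part of tuft cells in the Lgr5 result was not tested.

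Clock genes also moved between vehicle and 30 μg/kg, with 10 of 15 higher and 4 lower past the threshold, whereas 0 of 15 were called between 3 and 30 μg/kg. The part of the clock in the differences from vehicle was not tested. A Hox score, which follows position along the colon, ran from -2.84 to 5.26 in vehicle-treated mice and from -1.73 to 4.88 at 30 μg/kg. With that score as covariate Lgr5 was at -1.39 (adjusted p = 2.86e-05, edgeR) and Smoc2, at -0.63 (adjusted p = 0.0305), then passed the threshold.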

How the data were processed

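RNA-seq libraries of 27 mice (3 biological replicates per group) were made from total RNA of colonic scrapings. The authors deposited raw counts, whole reads per gene and mouse, not normalized. The submitters' processing notes name Trimmomatic 0.33, TopHat2 2.1.0, SAMtools 1.2.0, HTSeq 0.6.1 and GRCm38, and the annotation release and the use of strand are not given in the sources used here. Reads of no feature (29.1 to 33.3%) and with more than 1 alignment (30.7 to 37.1%) were left out, so reads shared by near-identical genes are lost. In all 27 pairs of replicates the counts differed by more than sampling noise (lowest χ2 per degree of freedom 5.32).

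Coordinates are those of GENCODE M21. filterByExpr (minimum count 10), TMM and glmQLFit of edgeR 4.0.16 (R 4.3.3) were run on all groups, and p-values were adjusted over 16496 genes. Correlations used log2 CPM with a prior count of 2. The Hox score is the first principal component of 25 Hox genes (62.3% of variance), and the stroma score the mean log2 CPM of 13 fibroblast and smooth muscle genes. The edgeR steps for a dose against vehicle and for the slope were tested on simulated counts. Those counts held no index sets or stromal differences, and the other fits, scores and motif search were not tested in this way. All members are named. Of each pathway list those called at 30 μg/kg are named, or the 2 with most CPM, and Cd44, Lgr4, Hopx, Olfm4, the ephrin-B ligands and the named stromal markers were added after their values were seen. A result of the BMP list is not reported here. Members and lists were chosen with earlier results of these data known. Alternatives were RLE factors, DESeq2 1.42.0, limma 3.58.1 voom, no filter, other samples or covariates in the fit, and leaving out each mouse.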

Additional observations from a re-analysis of the deposited data

How the results depend on the processing

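No paired analysis was possible because the labels number the mice singly and no number recurs between groups. Only the 1 μg/kg group holds mice of both index sets, so a fit with both dose and index set separates them through 3 mice, and low counts limit Ascl2, Lgr5 and Smoc2. For the 10 members at 10 and 30 μg/kg, between 30 and 3 μg/kg and over the slope, 300 of 330 values from other fits and 402 of 450 with a mouse left out kept their direction and their side of the threshold. A value that was called in neither fit counts as kept if its sign held. Of the calls at 10 μg/kg, leaving out a mouse ended that of Lgr5 in 2 of 6 fits and that of Sox9 in 5 of 6. For the values that moved, the cause was not tested. Lgr5 at 30 μg/kg was called in all 8 other fits (log2 fold-change -1.66 to -1.39) and in all 6 that left out a mouse (-1.53 to -1.2).

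With a term for the index set, 0 members were called at 10 μg/kg, 1 (Lgr5) at 30 μg/kg and 0 for the slope. Of all 16496 genes 58, 731 and 11 were called in the same fits. The same term turned the sign of the slope of Ascl2 (0.018), which was called without it, and of values that were not called, namely the slopes of Znrf3 (0.022) and Lrig1 (0.001), at 10 μg/kg Smoc2 (0.34), Ephb3 (0.04) and Lrig1 (0.29), and at 30 μg/kg Znrf3 (0.2), Ephb2 (0.03) and Lrig1 (0.19). With the adjusted p alone 5 members passed at 30 μg/kg, and the share of all genes under that rule was not counted. With only the groups compared 0 members were called between 30 and 3 μg/kg, and 32 of 15073 genes were. Znrf3 at 30 μg/kg was 0 to 2 decimals, on the other side of zero, with RLE factors, the Hox score or DESeq2.

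Leaving out 1 mouse at a time gave 0 to 2 members called at 10 μg/kg. It also moved values across zero, none of them called. Ascl2 ran from -0.29 to 0.24 at 30 μg/kg and from -0.28 to 0.25 between 30 and 3 μg/kg, and Ephb2 from -0.04 to 0.16 at 10 μg/kg and from -0.08 to 0.01 at 30 μg/kg. Znrf3 ran from 0 to 0.09 at 10 μg/kg, from -0.08 to 0.1 at 30 μg/kg, from -0.12 to 0.07 between 30 and 3 μg/kg and from -0.008 to 0.002 as a slope.

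Of all genes tested, 1016 were called at 30 μg/kg against vehicle, but 616 with the stroma score and 662 with only both groups in the fit. At 10 μg/kg the 294 genes became 58 with the index set as a term and 462 with the Hox score. Between 30 and 3 μg/kg there were 76, against 32 with only both groups, 44 with only the second index set, 148 with no filter, 151 with DESeq2 and 188 with the Hox score. The 3865 genes with a slope became 11 with the index set as a term.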
